A study of Drosophila melanogaster with 4 samples.

Results

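The genes examined here encode the factors that start and extend protein chains on cytosolic ribosomes. They were taken as all protein-coding genes of the Ensembl annotation whose symbol starts with eIF (eukaryotic initiation factor) or eEF (eukaryotic elongation factor), which gave 52 of 13968 genes, 44 of them eIF and 8 eEF. Binding was read from chromatin immunoprecipitation with sequencing of Gug, also called Grunge or Atrophin, a nuclear co-repressor. The chromatin came from whole Drosophila melanogaster embryos aged 0 to 24 h that carried a Gug-eGFP transgene, was sonicated to fragments of 200 to 800 bp, and was precipitated with an antibody to GFP, in 4 biological replicates of 1 group. No control sample was used here, the promoter that drives the transgene is not given in the sources used here, and whole embryos mix all tissues and stages, so the cells behind a peak cannot be told apart. The deposited thresholded peak lists of replicates 1 to 4 contained 1948, 3786, 2117 and 2450 peaks on the main arms. The depth of the libraries is unknown.

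Translation starts when eIF2 brings the initiator tRNA to the small ribosomal subunit, eIF3 holds the assembly together and the eIF4 factors bring the capped mRNA. eIF1, eIF1A and eIF5 then control the choice of the start codon, eIF5B joins the large subunit, and eIF2B reloads eIF2 with GTP. During elongation eEF1 delivers the charged tRNAs and eEF2 moves the ribosome along the message. Most of these genes are active in every growing cell, and in the fly several have a paralogue used mainly in the testis or ovary.

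A gene was counted in a list when a thresholded peak had its summit, the position of highest signal, within 1 kb of one of the gene's transcription start sites (TSSs). Distances run along the gene, with negative values upstream. The signal percentile of a peak is the share of peaks in the same list with the same or a lower signal value, where the signal is a value deposited by the authors for each peak. Where several summits lay near a gene, the one nearest to a TSS was used in each list.

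The stretches under the summits are shown for 4 of the 7 genes that had a peak in all 4 lists. The first 2 summits lay closer to a neighbouring gene than to the factor gene, and the last 2 lay just upstream of the factor gene's own TSS. They were read from the RefSeq copy of the dm6 genome between the annotated exons on either side, at most 100 bases from the median summit, on the strand of the factor gene and from 5′ to 3′. Capitals mark matches to the DREF element TATCGATA and to the TATA box letters TATAAA on either strand. The eIF2Bbeta stretch is chrX:2703853-2704011 on the plus strand with its summit at base 59. The eIF4EHP stretch is chr3R:24109160-24109335 on the minus strand with its summit at base 76. The eEF1gamma stretch, chr3R:29220048-29220171, and the eIF1 stretch, chr3L:3223184-3223340, are on the plus strand, each with its median summit at base 101.
eIF2Bbeta: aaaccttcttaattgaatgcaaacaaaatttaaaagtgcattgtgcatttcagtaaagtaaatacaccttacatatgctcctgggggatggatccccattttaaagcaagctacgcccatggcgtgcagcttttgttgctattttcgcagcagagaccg
eIF4EHP: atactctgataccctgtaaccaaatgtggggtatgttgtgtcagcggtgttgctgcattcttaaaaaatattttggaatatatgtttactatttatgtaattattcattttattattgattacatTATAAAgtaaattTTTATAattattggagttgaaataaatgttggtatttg
eEF1gamma: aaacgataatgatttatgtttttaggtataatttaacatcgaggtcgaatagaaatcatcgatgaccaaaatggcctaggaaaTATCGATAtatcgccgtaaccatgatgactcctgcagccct
eIF1: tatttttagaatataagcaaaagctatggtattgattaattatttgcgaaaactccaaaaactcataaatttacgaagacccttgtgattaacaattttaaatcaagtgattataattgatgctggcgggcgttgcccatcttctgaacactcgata

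Only the stretch upstream of eEF1gamma held the DREF letters, and only the one between eIF4EHP and its neighbour held the TATA letters. The stretches upstream of eIF2Bbeta and eIF1 held neither. A match is a description of letters and does not show that a factor binds.

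Gug-eGFP peaks lay at a minority of the translation factor genes. Of the 52 genes, 10 (19.2%) had a peak in at least 2 of the 4 lists, beside 16% of all protein-coding genes. All 4 lists held a peak at 7 (13.5%), beside 7.88% of all genes: eIF1, eIF5B, eIF2Bbeta, eIF3h, eIF4EHP, eIF6 and eEF1gamma. Exactly 1 list held a peak at 10, or 19.2% of the 52, beside 8.12% of all genes, and 32 had none. The share with a peak in at least 2 lists is close to that of all genes, while the shares for all 4 lists and for exactly 1 list are higher. None of these differences was tested.

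The count of factor genes differed between replicates. The lists of replicates 1 to 4 held a peak at 8, 20, 10 and 7 of them, which is 15.4%, 38.5%, 19.2% and 13.5% (mean 21.6% ± 11.5, SD, n = 4). Among all protein-coding genes the same lists held 10.3%, 22.5%, 13.8% and 13%. Replicate 2, with the longest list, stood above the other lists in both. With every list shortened to its 1948 strongest peaks, a comparison chosen after seeing the data, the counts were 8, 12, 8 and 7 factor genes, or 15.4%, 23.1%, 15.4% and 13.5%, beside 10.3%, 14.1%, 13.1% and 11.1% of all genes. The plot of shares by replicate shows both versions.

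**Figure D1:**
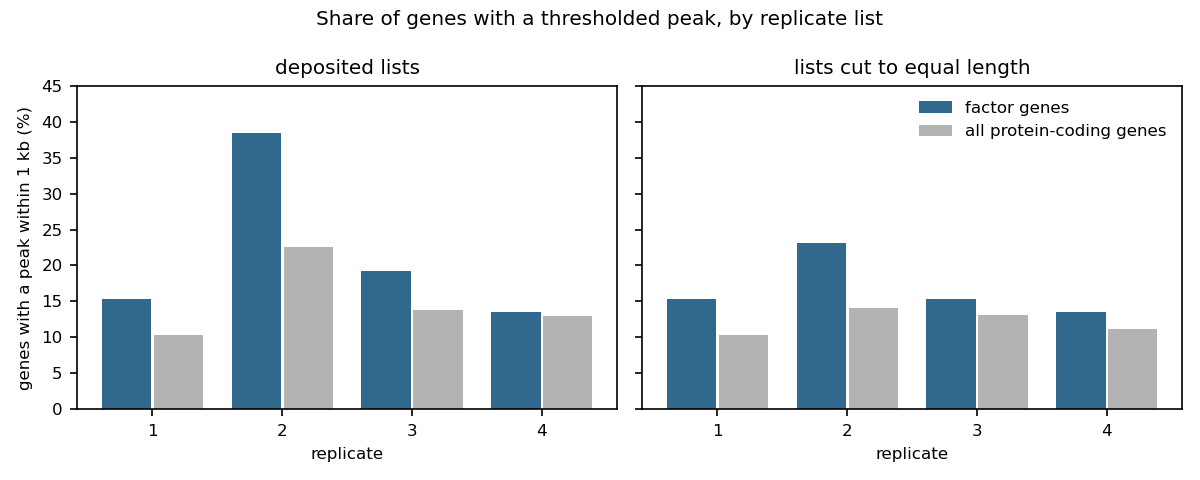
Share of genes (%, vertical axis) with a thresholded peak within 1 kb of a TSS in the list of each replicate (horizontal axis), for the 52 factor genes and all 13968 protein-coding genes, with the deposited lists on the left and lists of 1948 peaks on the right. Replicate 2 holds the highest share of factor genes in both panels, 38.5% and 23.1%.

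The map of peaks by gene and replicate shows how the peaks fall over the roles. Peaks in at least 2 lists lay at 2 of 6 start-codon factors, 0 of 3 eIF2 subunits, 1 of 5 eIF2B subunits, 3 of 16 eIF3 genes, 1 of 13 eIF4 genes, 1 of the 2 genes eIF6 and eEF5, and 2 of 7 elongation factors. By symbol that is 8 of 44 eIF genes (18.2%) and 2 of 8 eEF genes (25%), beside 16% of all protein-coding genes. The eIF2B and eIF4 counts rest on eIF2Bbeta and eIF4EHP, whose median summits lay nearer to another gene's TSS. No role had peaks at most of its genes, and no multi-subunit complex had peaks at all of its genes.

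**Figure D2:**
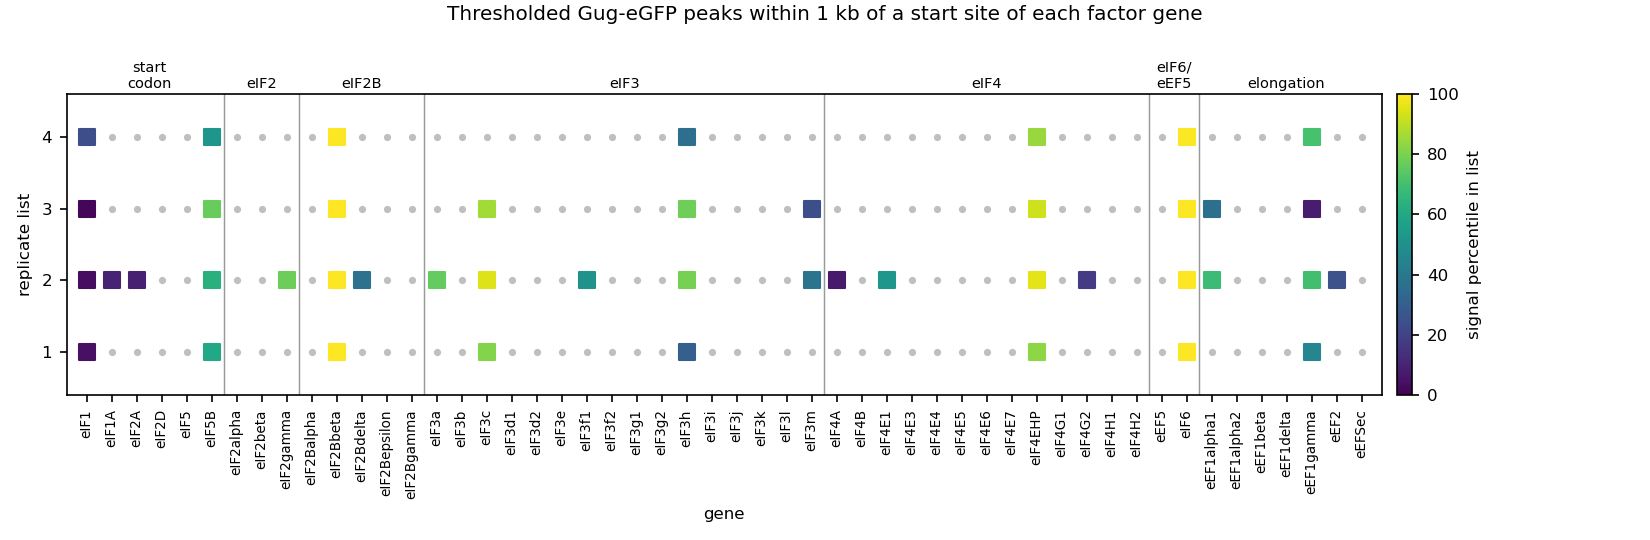
Each of the 52 factor genes (horizontal axis, grouped by role) in each replicate list (vertical axis). Squares mark a thresholded peak within 1 kb of a TSS, coloured by its signal percentile in that list, and grey dots mark no peak. Of the columns, 7 are filled in all 4 lists and 10 only in the list of replicate 2.

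Among the start-codon factors, eIF5B (3L, 3428658 to 3460977, minus strand), whose product joins the ribosomal subunits, had summits at -144, -120, -130 and -129 bp in replicates 1 to 4. Their signal percentiles were 60.01, 63.4, 76.8 and 52.7 (mean 63.2 ± 10.1, SD, n = 4). The replicates thus placed the summit close together, at a middle rank, upstream of the nearest TSS and in the 5′ UTR of a longer transcript. Start sites of CG46463 and of armi, which encodes an RNA helicase of the piRNA pathway, lay 583 and 585 bp from the summit. Further inside the gene, an intronic region at 3L, 3432646 to 3433066, 27696 bp downstream of a TSS, was found in 3 lists at a mean percentile of 26.2.

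eIF1 (3L, 3223341 to 3224650, plus strand), which keeps the scanning ribosome from starting at the wrong codon, had summits at -12, -70, -44 and -352 bp. The signal percentiles were 4.26, 3.17, 1.56 and 23.8 (mean 8.19 ± 10.4, SD, n = 4), and without replicate 4 the mean was 3.00. These values come from 2 different peaks. Replicates 1 to 3 had a peak at the eIF1 TSS, at a low percentile in each. The thresholded list of replicate 4 had only a peak further upstream, beside RpL28, a ribosomal protein gene. The RpL28 TSS is 324 bp from the median summit, which falls at the eIF1 TSS peak. The upstream summit of replicate 4 lay nearer to RpL28 than to eIF1, so eIF1 was counted there only through the 1 kb window. Replicates 2 and 3 also had that upstream peak, at -327 and -299 bp and percentiles of 47.3 and 3.02, so replicate 4 lay beyond both in distance and between them in rank. By the summit nearest to the TSS in each list, which mixes the 2 peaks, the mean was the lowest of the 1101 genes found in all 4 lists.

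The other start-codon factors had a peak in at most 1 list. For eIF1A, which works beside eIF1 in scanning, and eIF2A it was that of replicate 2, at +6 and -17 bp and percentiles of 9.67 and 8.87, and a TSS of Vps39 lay 225 bp from the eIF1A summit. eIF2D and eIF5 had none.

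The 3 subunits of eIF2, the carrier of the initiator tRNA, had no peak in more than 1 list. eIF2gamma (3R), which binds GTP and the tRNA, had a peak in the list of replicate 2 at -53 bp and a percentile of 77.5, the highest of the genes found in 1 list. Its summit lay 41 bp from a TSS of Set and 53 bp from one of Su(var)3-9, a histone methyltransferase gene. eIF2alpha, whose product is phosphorylated under stress, and eIF2beta had none.

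For eIF2B, the exchange factor of eIF2, eIF2Bbeta (X, 2704571 to 2706217, plus strand) had summits at -654, -659, -660 and -662 bp. Each was the peak with the highest signal of its list, at a percentile of 100 in all 4. The summit lay 59 bp from the TSS of Ugalt, a UDP-galactose transporter gene, and the peak counts for eIF2Bbeta only through the 1 kb window: it was lost with a window of 500 bp and when each summit was given only to its nearest TSS. eIF2Bdelta had a peak in the list of replicate 2 at -713 bp and a percentile of 37.3, nearer to CG30414 (340 bp) and roh (623 bp). The eIF2Balpha, eIF2Bgamma and eIF2Bepsilon genes had none within 1 kb.

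Among the genes of eIF3, the largest initiation factor, eIF3h (2L, 5051193 to 5053094, minus strand) had summits at +329, +284, +324 and +319 bp, inside an intron. It was the only one of the 10 genes with its median summit downstream of the TSS. The percentiles were 29.9, 79.3, 77.8 and 36.1 (mean 55.8 ± 26.4, SD, n = 4), with replicates 2 and 3 high and replicates 1 and 4 low. The TSS of senju lay 385 bp from the summit, so the eIF3h TSS was the nearer by a small margin.

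eIF3c (2R, 17665678 to 17669275, plus strand), a core subunit, had summits at -32, -39 and +25 bp in replicates 1 to 3 and none in replicate 4. The distances of replicates 1 and 2 run from a later TSS than that of replicate 3. By position the summits were at 17665727, 17665720 and 17665703, so that of replicate 3 lay slightly upstream of those of replicates 1 and 2. The percentiles were 81.3, 94.5 and 86.1 (mean 87.3 ± 6.69, SD, n = 3). Replicate 4 had no peak within 1 kb of eIF3c in its longer ranked list either. A TSS of CCHa1-R, a neuropeptide receptor gene, lay 652 bp from the median summit. eIF3m (2R, 14163066 to 14164825, minus strand) had summits at -60 and -55 bp in replicates 2 and 3, at percentiles of 38.7 and 23.9, with a TSS of CG8323 169 bp away. eIF3a, another core subunit, and eIF3f1 had a peak in the list of replicate 2 only, at -40 and -33 bp and percentiles of 76.1 and 51.0. The eIF3a summit was nearer to a TSS of CG1074, at 30 bp. The other 11 eIF3 genes (eIF3b, eIF3d1, eIF3d2, eIF3e, eIF3f2, eIF3g1, eIF3g2, eIF3i, eIF3j, eIF3k and eIF3l) had none.

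Among the eIF4 genes, eIF4EHP (3R, 24063077 to 24108960, minus strand) encodes a cap-binding protein that blocks translation of certain maternal mRNAs in the fly embryo. Its summits lay at -324, -299, -302 and -156 bp, with percentiles of 83.0, 96.1, 92.4 and 84.7 (mean 89.0 ± 6.22, SD, n = 4). All replicates ranked it high, and replicate 4 placed the summit closer to eIF4EHP than the others did. The median summit was 76 bp from the TSS of CG18428, and eIF4EHP was lost when each summit was given only to its nearest TSS. An intronic region 9739 bp downstream of a TSS (3R, 24099074 to 24099375) was found in 2 lists at a mean percentile of 57.4.

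The genes for the helicase eIF4A, the main cap-binding protein eIF4E1 and the scaffold paralogue eIF4G2 had a peak in the list of replicate 2 only. Their summits lay at -74, -37 and -57 bp, at percentiles of 6.97, 52.4 and 17.3. Replicate 2 held 2 more peaks upstream of eIF4A starts, at -142 and -709 bp and percentiles of 14.9 and 40.3, so the summit nearest to a TSS was the weakest of the 3. The eIF4G2 summit was as close to a TSS of CG33111 (57 bp) as to its own. eIF4B, eIF4E3, eIF4E4, eIF4E5, eIF4E6, eIF4E7, eIF4G1, eIF4H1 and eIF4H2 had none.

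eIF6 (2R, 23849246 to 23850301, minus strand), which keeps the large ribosomal subunit from joining too early and acts in its assembly, had summits at -89, -103, -102 and -88 bp. The percentiles were 99.4, 99.9, 99.7 and 99.4 (mean 99.6 ± 0.232, SD, n = 4), which are ranks 13, 6, 7 and 15 in the lists. Of the 1101 genes found in all 4 lists, 7 had a higher mean. The eIF6 TSS was the nearest to the summit, which also lay in an intron of ytr, 677 bp from that gene's TSS. eEF5, which encodes the hypusine-carrying factor also known as eIF5A, had no peak.

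Among elongation factors, eEF1gamma (3R, 29220172 to 29222109, plus strand), a subunit of the complex that reloads eEF1alpha, had summits at -26, -32, -8 and -22 bp. The percentiles were 46.0, 69.7, 7.79 and 71.1 (mean 48.6 ± 29.6, SD, n = 4), so the place was steady and the rank was not: replicate 3 ranked it near the bottom. No other gene had a TSS within 1 kb of the summit, which was intergenic.

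eEF1alpha1 (2R, 11891135 to 11895762, plus strand), which delivers charged tRNAs, had summits at -81 and -104 bp in replicates 2 and 3, at percentiles of 68.0 and 36.7. It too had no other gene's TSS within 1 kb of the summit. In replicates 1 and 4 thresholded summits lay at -1483 and -1456 bp, outside the window. eEF2, the translocation factor, had a peak in the list of replicate 2 only, at +15 bp and a percentile of 25.4. eEF1alpha2, eEF1beta, eEF1delta and eEFSec had none.

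The plot of distance and signal brings the 10 genes together. Their mean percentiles ran from 8.19 for eIF1 to 100 for eIF2Bbeta, with a median of 59.5, beside 52.2 for all 2232 genes with a peak in at least 2 lists. For the 7 in all 4 lists the median was 63.2, beside 69.0 for the 1101 such genes. The median summit lay upstream for 9 of 10 (90%, beside 86.7% of the 2232) and within 200 bp of a TSS for 7 of 10 (70%, beside 60.2%). By place and rank, then, the peaks at translation factor genes covered much the same range as Gug-eGFP peaks at other genes.

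**Figure D3:**
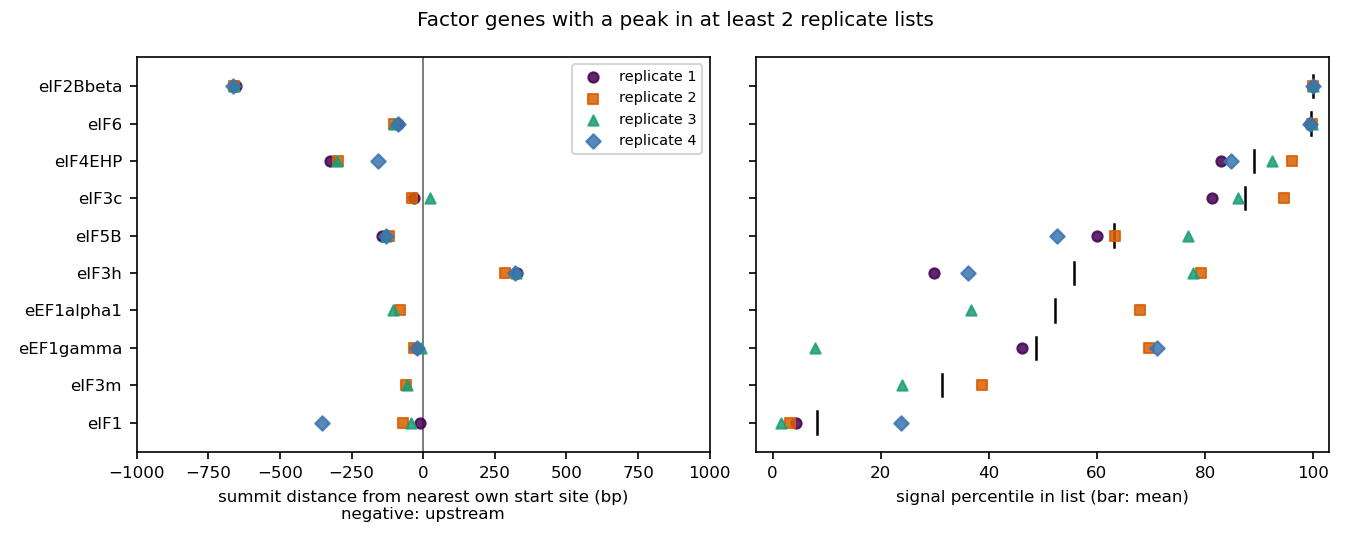
The 10 factor genes with a peak in at least 2 lists, from the highest to the lowest mean signal percentile. Left, distance of the summit from the nearest TSS of the gene (bp, negative upstream), right, signal percentile within the list, with 1 symbol per replicate and a bar at the mean. eIF2Bbeta and eIF6 hold the top percentiles in every replicate, while eEF1gamma and eIF3h spread from 7.79 to 71.1 and from 29.9 to 79.3.

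Most of these peaks lay where genes crowd. The factor gene's own TSS was the nearest to the summit for 8 of 10, and the TSS of a neighbour for eIF2Bbeta and eIF4EHP. For 8 of 10 another gene had a TSS within 1 kb of the summit, and the peak then cannot be told apart between the genes by position. Measured from TSS to TSS, another gene's start lay within 1 kb for 9 of the 10 genes and for 19 of the 42 genes with a peak in fewer than 2 lists. The same held for 53.8% of the 52 factor genes, 42.8% of all protein-coding genes and 69.2% of the genes with a peak in at least 2 lists.

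A number of peaks fell just outside the 1 kb limit. Summits near eIF3g1 (median +1385.5 bp, 4 lists, mean percentile 71.6 ± 11.6, SD), eIF3d1 (-1241 bp, 4 lists, 56.8 ± 17.3, SD) and eIF2Bgamma (-1268 bp, 3 lists, 47.2 ± 21.0, SD) lay at another gene's TSS. Those neighbours were Smyd3 at 74 bp, GILT2 at 97 bp and CG8187 at 30 bp. Nearest inside the limit were eIF2Bdelta at -713 bp and eIF2Bbeta at -659.5 bp. With a window of 2 kb the count was 13 genes (25%, beside 19.7% of all genes).

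The 10 genes found in 1 list were all in the list of replicate 2: eIF1A, eIF2A, eIF2gamma, eIF2Bdelta, eIF3a, eIF3f1, eIF4A, eIF4E1, eIF4G2 and eEF2. The same list held 970 of the 1134 genes (85.5%) found in a single list across the genome. The summits of 9 of the 10 lay within 100 bp of the TSS, eIF2Bdelta being the exception, beside 51.9% of the 1134 genes. By the summit nearest to a TSS, their percentiles ran from 6.97 for eIF4A to 77.5 for eIF2gamma, with a median of 31.3.

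The longer ranked lists, with 49135, 36545, 40137 and 32752 peaks, hold candidates below the threshold as well. In them 40 of the 52 genes (76.9%) had a peak within 1 kb in at least 2 lists, beside 69.2% of all genes, so a ranked peak separates few genes. All 10 genes found in 1 thresholded list had a ranked peak in at least 2 lists, and 5 of them (50%) in all 4, beside 98.2% and 68.4% of the 1134 genes found in a single list. For 8 of the 10 (80%) the ranked summit nearest to a TSS in another replicate had a signal percentile of at least 75. The same held for 85.5% of the 1134, so this is no trait of the factor genes. Ranked peaks further from the TSS were not scored here. eIF2gamma was among the 8, with ranked percentiles of 93.2, 90.2 and 77.8 in replicates 1, 3 and 4.

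Of the 32 genes with no thresholded peak, 26 (81.2%) had a ranked peak in at least 1 list, beside 82.1% of the 10602 protein-coding genes without a thresholded peak. All 4 ranked lists held a peak at 3 of the 32 (9.38%), eEF1alpha2, eIF3k and eIF4E3, beside 15.2% of the 10602. The 6 with none in any list were eEF1delta, eIF3f2, eIF3g1, eIF4E5, eIF4G1 and eIF5. Absence from a list means that no peak was called there at an unknown depth, not that the protein is absent.

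Widely expressed genes were then set beside paralogues of the germline in 5 families. None of the 5 widely expressed genes (eIF4E1, eIF4G1, eIF3d1, eIF3f1 and eIF3g1) and none of the 7 germline paralogues (eIF4E3, eIF4E5, eIF4E7, eIF4G2, eIF3d2, eIF3f2 and eIF3g2) had a peak in at least 2 lists. Of all protein-coding genes 16% had one. In the list of replicate 2 a peak lay at eIF4E1 and eIF3f1 of the former and at eIF4G2 of the latter. That is 2 of 5 and 1 of 7, beside 22.5% of all genes. Ranked peaks in at least 2 lists lay at 3 of 5 (60%) and 4 of 7 (57.1%), beside 69.2% of all genes. With so few genes, which share ancestry within a family, the data at hand show no difference between the classes and cannot show that there is none.

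The class with the thresholded peak of replicate 2 differed between families. The widely expressed gene had the thresholded peak of replicate 2 in the eIF4E family, at eIF4E1, and in the eIF3f family, at eIF3f1, while in the eIF4G family it was the germline paralogue eIF4G2. Ranked peaks lay in 2 lists at eIF3d1 and 1 at eIF3d2, in 2 at eIF3f1 and 0 at eIF3f2, and in 0 at eIF3g1 and 2 at eIF3g2. A count of ranked lists takes any summit within 1 kb, so it need not be the same peak in each list. At eIF3g2 the summits lay at -870 bp in replicate 1 and +832 bp in replicate 3. In the eIF4E family eIF4E1 had a ranked peak in all 4 lists and eIF4E7 in 2. The germline paralogue eIF4E3 also had one in all 4, at percentiles of 21.5, 7.77, 58.3 and 45.6, and eIF4E5 had one in none. The eIF4E3 summits lay on either side of the TSS, at -384, -456, +385 and +338 bp in replicates 1 to 4. For eIF4G the widely expressed eIF4G1, which lies on chromosome 4, had no ranked peak, while eIF4G2 had one in all 4. Other paralogues were placed in neither class: eIF4EHP had a peak in 4 lists, eEF1alpha1 in 2, and eEF1alpha2, eIF4E4, eIF4E6, eIF4H1 and eIF4H2 in 0.

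Other genes of the translation apparatus gave a range of shares, drawn in the plot of shares by role. Among 21 regulators of translation 6 (28.6%) had a peak in at least 2 lists. They were Lk6, a kinase of eIF4E (mean percentile 99.2), eRF1 (68.3) and eRF3 (49.2), the termination factors, mxt (62.0), the poly(A)-binding protein gene pAbp (58.4) and MCTS1 (43.3). The Lk6 summit, at a median of -963 bp, lay in an intron of Lk6 near the edge of the 1 kb window and outside a window of 500 bp. No other gene had a TSS within 1 kb of it. The pAbp mean mixes different peaks: +18 bp in replicate 2, at a percentile of 13.8, and +466 to +515 bp in the others, at 67.1 to 78.6. The MCTS1 summit, at a median of -467.5 bp, was nearer to a TSS of rux, at 162 bp. Among 18 cytosolic aminoacyl-tRNA synthetases, which charge the tRNAs that eEF1alpha delivers, 8 (44.4%) had one. Their mean percentiles were 89.7 for GluProRS, 85.9 for SerRS, 60.3 for ArgRS, 57.6 for AsnRS, 55.9 for IleRS, 52.2 for AspRS, 51.2 for MetRS and 50.7 for ThrRS. The median summits at GluProRS, AspRS and MetRS lay nearer to AP-1sigma (81 bp), Nmda1 (23 bp) and CG15084 (27 bp). With each summit given only to its nearest TSS, 5 synthetases (27.8%) remained, beside 11.3% of all genes. None of 8 mitochondrial translation factor genes had a peak in at least 2 lists, and mEFTu1 and mRF1 had one in 1 list. The differences between these shares and the 19.2% of the factor genes were not tested.

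Promoter letters were counted for all 52 genes in the window from 250 bases before to 50 after the most upstream TSS of each gene. Other starts of a gene were not searched, so the window need not hold the TSS nearest to a summit. The DREF element TATCGATA, on either strand, was in 14 of the 52 promoters (26.9%), beside 9.36% of all 13968. It was in 4 of the 10 genes with a peak in at least 2 lists and in 10 of the other 42. The TCT initiator, a start-site element known from ribosomal protein and other translation genes, was searched as NCTTTN with a pyrimidine at each N, on the gene's strand, starting within 10 bp of the TSS. It was in 7 promoters (13.5%), beside 2.75% of all: eIF4A, eIF3e, eIF3f1, eIF3g1, eIF3i, eEF1delta and eEF1alpha1, of which only eEF1alpha1 had a peak in at least 2 lists. The eEF1alpha1 summits lay in an intron by a later TSS of that gene, outside the window searched.

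The other searches gave shares closer to those of all promoters. TATAAA was in 23 of the 52 (44.2%, beside 45.8%), the E-box CACGTG in 4 (7.69%, beside 4.20%) and the M1BP motif in 3 (5.77%, beside 4.49%). Within 100 bp of the summits of the 10 genes, the DREF letters were present at eEF1gamma and eIF6, or 20%, beside 6.43% of the 1634 promoter regions found in at least 2 lists. TATAAA was present at 3, or 30%, beside 33.2%, and the E-box and M1BP motifs at 0, beside 2.75% and 1.47%. The median GC content of these windows was 40.5%, beside 37.8% for the 1634 regions.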

How the data were processed

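The deposited peak lists are on dm6, per the file headers. A thresholded and a ranked list was deposited for each of 4 biological replicates, each made from that replicate's own alignment, per the deposited README texts. The aligner was not given in the sources used here, nor was the peak caller. The deposited IDR score (irreproducible discovery rate, which rates how well peak ranks agree) of every thresholded peak was at least 830. The deposited signal per peak is the authors' value, of unstated scale, and was used only to rank peaks within a list. The deposited −log10 q-value served as a filter in 1 alternative. The authors' conservative set served as another, and 13 further series-level lists were not used. The files hold no read counts, so depth is unknown and no interval was computed from it.

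Peaks were joined to TSSs of protein-coding genes of Ensembl release 115, 1-based, with Python 3.11.15, pandas 2.3.3 and numpy 2.4.6, and drawn with matplotlib 3.10.9. A gene was called with a summit within 1 kb in at least 2 lists. There is 1 group, so no groups were tested against each other, and Dixon's test only marked single replicates. The factor genes, roles, paralogue classes and comparison lists were chosen with earlier results of these data known, and eIF6 was known to be among the strongest regions. mEFG2 was not matched. Every factor gene is named. Other genes are named where their TSS was the nearest to a summit of a factor gene with a peak in at least 2 lists, or as called members of a comparison list. Further neighbours were named after their values were seen. Sequences were shown for genes found in all 4 lists, upstream of the TSS and outside exons, and not for all arms. Steps were tested on simulated data. Alternatives covered the number of lists, the window, the nearest TSS, joined regions, peak spans, list length, filters, the conservative set and each replicate left out. Protein identity of paralogues was not analysed here.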

Additional observations from a re-analysis of the deposited data

Results flagged for a closer look

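Replicate 4 stood apart in 3 of the 18 sets of 4 values examined. Chance alone marks about 1 in 20 sets where the sets are independent. Here percentile and distance come from the same peaks, so no excess over chance can be read from the count. At eIF1 its signal percentile was 23.8 and the nearest of the others was 4.26, a gap of 0.878 of the whole range. The eIF1 summit of replicate 4 lay at -352 bp and the nearest of the others at -70 bp, a gap of 0.8294 of the range. At eIF4EHP the summit of replicate 4 lay at -156 bp and the nearest of the others at -299 bp, a gap of 0.851 of the range. Each gap passed the critical value of Dixon's test for 4 samples. At eIF1 the lists of replicates 2 and 3 held a second thresholded summit upstream, at -327 and -299 bp and percentiles of 47.3 and 3.02, so both eIF1 gaps compare the upstream peak of replicate 4 with the TSS peak of the others.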

How the results depend on the processing

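The 10 factor genes with a peak in at least 2 lists became 20 (38.5%, beside 24.1% of all genes) with 1 list sufficing and 17 (32.7%, beside 25.0%) with the 5000 strongest ranked peaks, a setting chosen after seeing the data. The other settings gave 7 to 13, among them the conservative set with 13, which gained eIF3a, eIF4A, eIF4E1 and eIF4G2 and lost eIF3c. Leaving out 1 replicate gave 8 to 10, with eEF1alpha1 and eIF3m lost without replicate 2 or 3. For all genes the count of 2232 became 3366 with 1 list, 1101 with all 4, 1316 with the stronger 50% of each list and 3491 with the ranked peaks. For initiation factors 8 became 17 with 1 list and 14 with the ranked peaks. For elongation factors 2 became 1 with at least 3 lists, all 4 lists and the stronger 50%, and ranged from 1 to 2 when 1 replicate was left out. Widely expressed paralogues rose from 0 to 2 with 1 list or a 2 kb window and to 1 with the conservative set or the ranked peaks, and germline paralogues to 1 with 1 list, the conservative set or the ranked peaks. Regulators went from 6 to 14 with 1 list, 3 with all 4, 11 with the conservative set and 13 with the ranked peaks. Synthetases went from 8 to 5 with all 4 lists or the nearest TSS only. Mitochondrial factors went from 0 to 2 with 1 list and 1 with the conservative set or the ranked peaks. The cause of these changes was not tested. Within 50 bp of the summits, DREF and TATA letters each matched 1 gene. The remaining 124 counts stayed within 1.5 times. No paired analysis was possible because there is 1 group. Unknown depth, no control and whole embryos limit every count.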
